A study of Homo sapiens with 6 samples.

Results

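The transcripts of 42 lysosome and autophagy genes were followed in MDA-MB-231 cells after silencing of NEK2. The genes were taken by symbol from a fixed list of 8 roles, and all 42 were found among the 74852 rows of the gene table. All 42 also passed the filter of a mean of at least 10 normalized counts, which 18717 rows passed. Their means over the 6 libraries ran from 201.6 (TFEB) to 57552 (PSAP) normalized counts, which are reads divided by a size factor of the library and not by transcript length.

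Lysosomes are acidic organelles in which hydrolases break down proteins, glycans and lipids, and a proton pump in their membrane, the V-ATPase, keeps the lumen acidic. In macroautophagy a double membrane forms around cytoplasm, closes as an autophagosome and delivers its content to the lysosome. The membrane is started by the ULK1 and BECN1 complexes, is decorated with lipid-linked ATG8 proteins by a conjugation system that resembles ubiquitin transfer, and takes up cargo through receptors that bind both ATG8 proteins and ubiquitin. The transcription factors TFEB, TFE3 and MITF bind an E-box of the sequence CACGTG, extended in many lysosomal genes, and are known activators of both gene sets.

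MDA-MB-231 is a human triple-negative breast cancer cell line, and NEK2 is a serine/threonine kinase of the centrosome and of mitosis. Cells received a pool of control siRNAs (si-CTRL) or of siRNAs against NEK2 (si-NEK2) with the lipid reagent Lipofectamine RNAiMAX in 2 rounds, and the sample records give a harvest 24 h after the second, while the study's methods state a later time. PolyA RNA of 3 libraries per group was sequenced, with 52625492 to 87454509 reads assigned to genes per library. Both groups are the same line and underwent the same transfection, there is 1 cell line and 1 set of NEK2 siRNAs, so other effects of those siRNAs cannot be told apart from the loss of NEK2. Nothing in the records says that the 3 libraries of a group came from separate experiments, so p-values measure the spread between these libraries only.

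NEK2 itself had 3702, 3323 and 3290 normalized counts in the si-CTRL libraries and 284, 362 and 388 in the si-NEK2 libraries, so 10.0% of the control level remained (log2 fold change -3.32, SE 0.12, limma adjusted p = 1.86e-06). VIM and CD44, markers of this mesenchymal line, were abundant in every library (at least 134282 and 29767 normalized counts), and ESR1, PGR and CDH1 stayed at or below 15.2, 1.64 and 5.42. ERBB2, however, had 2455 to 4085 normalized counts. The si-CTRL replicate 1 library stood apart from the other 5 on the second principal component (16.2% of the variance, against 61.7% for the first), and for some of the genes that it moved values are given with and without it. The libraries also differed in their summed normalized counts, at 65012672 to 65933374 for si-CTRL and 71439027 to 71995295 for si-NEK2. Genes of the list whose call ended with another scaling are therefore named with that scaling.

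More lysosome and autophagy transcripts were higher than lower in si-NEK2 cells, in most cases by a small amount. Of the 42 genes, 30 had a positive and 12 a negative log2 fold change. Taking an adjusted p (limma, Benjamini-Hochberg) of at most 0.05, 20 rose (47.6%) and 5 fell (11.9%), while 21.8% of all 18717 tested genes rose and 21.3% fell. The genes of the list had high counts, with a median of their means of 5366 against 615 for all tested genes. Among the 12061 tested genes at or above the lowest mean of the list 29.4% rose and 22.4% fell. That cut sets only a lower bound and does not match the list for level. The median log2 fold change was 0.18 for the 42 genes, 0.01 for all tested genes and 0.07 for those 12061.

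The changes were modest in size. Under a rule of at least 1.5-fold with an unadjusted p of at most 0.05, 5 genes were higher (NEU1, ATP6V1A, ATP6V1B2, ATG5 and GABARAPL1) and 2 were lower (TFE3 and SQSTM1). Those are 11.9% and 4.76% of the list, against 8.23% higher and 14.3% lower among all tested genes and 7.82% and 10.6% among those 12061. No gene of the list reached a fold change of 2. In 21 genes all si-NEK2 libraries lay above all si-CTRL libraries and in 8 all lay below, where 28.2% and 26.9% of all tested genes did so. In bulk RNA a change of level in every cell and a change in the share of cells that carry the transcript cannot be told apart.

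The split between genes that rose and fell depended on the scaling of the libraries. It was 18 and 8 with upper quartile scaling, where 17.5% and 24.6% of all tested genes rose and fell, and 13 and 8 with quantile scaling, against 21.1% and 19.1%. With every library set to the same total, which moved the median of all tested genes to -0.11, 12 genes of the list rose and 8 fell, against 13.8% and 28.1% of all tested genes. Their median was then 0.06, LAMP1, CTSD, GLA, HEXA, ATP6V1H, ATG13, BECN1 and NBR1 no longer passed, and LAMP2, CTSL and OPTN passed as lower. With quantile scaling the same genes except GLA no longer passed, and with upper quartile scaling HEXA and ATP6V1H did not. LAMP2, CTSL and OPTN passed as lower with these scalings too. Without si-NEK2 replicate 2, 15 of the 42 genes kept an adjusted p of at most 0.05, and without si-NEK2 replicate 3, 16 did. Of all tested genes 31.5% and 35.2% then had such an adjusted p, against 43.1% with all libraries. In 13 genes the call and its direction held under all 17 alternatives, namely NEU1, ATP6V0D1, ATP6V1B2, WIPI2, ATG4B, ATG5, ATG12, MAP1LC3B, GABARAP, GABARAPL1 and TAX1BP1, which rose, and TFE3 and SQSTM1, which fell. The share of all tested genes whose call held under all 17 was not computed, so the list cannot be compared with them on this.

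**Figure D1:**
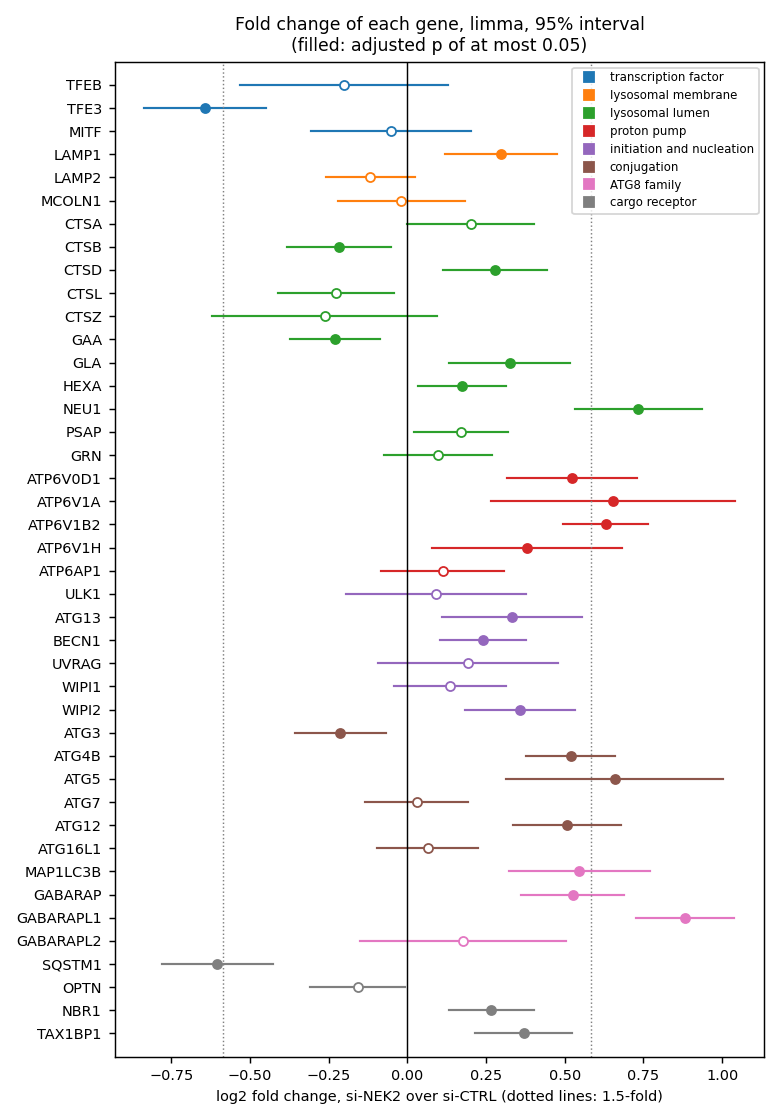
Log2 fold change of each of the 42 genes, si-NEK2 over si-CTRL (x axis), with genes on the y axis in the order of their roles. Points are limma estimates from 3 libraries per group, bars are 95% intervals, filled points have an adjusted p of at most 0.05 and dotted lines mark a fold change of 1.5. GABARAPL1 (0.88) lies farthest to the right and TFE3 (-0.64) farthest to the left, and the 5 proton pump and 4 ATG8 genes all lie right of 0.

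The transcripts of the pathway's transcription factors did not rise, and the activity of these factors was not measured. TFE3 (GSHG0032087, hg19 chrX:48886240-48901043) had 1715, 1599 and 1713 normalized counts in si-CTRL and 1146, 1102 and 977 in si-NEK2 cells. Every si-NEK2 library was below every si-CTRL library, and TFE3 fell by 0.64 on the log2 scale (SE 0.09, limma adjusted p = 0.000474). Its fold change passed 1.5 with all libraries but not without si-NEK2 replicate 3 (-0.58, adjusted p = 0.00237). TFEB, the best studied factor of the family, had 217, 223 and 204 against 186, 221 and 158 normalized counts. These overlap, and the log2 difference was -0.20 with a 95% interval from -0.53 to 0.13 (limma adjusted p = 0.298). MITF, known mainly from melanocytes, ranged from 357 to 440 in si-CTRL and from 364 to 406 in si-NEK2 libraries, with a log2 difference of -0.05 (SE 0.11) that turned to 0.11 with quantile scaling and 0.03 without si-CTRL replicate 1.

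The E-box of these factors was looked for in the promoters, since the 42 genes include their known targets. RefSeq windows of 250 bases before to 50 after each gene start (GRCh38.p14) were at hand for 34 of the 42 genes and for 27305 genes in all. LAMP2, CTSB, HEXA, PSAP, ATP6V1A, ATP6V1B2, ATP6V1H and UVRAG had no window. Of these, ATP6V1A and ATP6V1B2 were higher by the 1.5-fold rule, so the counts below do not cover the whole list. CACGTG, which reads the same on both strands, stood in 8 of the 34 (23.5%), in 32 of 130 further genes of the pathway (24.6%) and in 2396 of all genes (8.77%). The longer form TCACGTGA, which contains CACGTG and is also the same on both strands, stood in 6 of the 34 (17.6%), 12 of the 130 (9.23%) and 321 of all genes (1.18%). Known targets of these factors are in the list by choice, and the 27305 genes include genes that were not tested here. The shares therefore describe the list and are no test of enrichment. A match describes the letters in this window only, and no binding was measured. The 8 genes with a match are shown as the stretch upstream of the start that holds it, 5′ to 3′ on the strand of the gene, with the E-box in capitals and its longer form in capitals throughout where present.
LAMP1, chr13:113297025-113297238, plus strand: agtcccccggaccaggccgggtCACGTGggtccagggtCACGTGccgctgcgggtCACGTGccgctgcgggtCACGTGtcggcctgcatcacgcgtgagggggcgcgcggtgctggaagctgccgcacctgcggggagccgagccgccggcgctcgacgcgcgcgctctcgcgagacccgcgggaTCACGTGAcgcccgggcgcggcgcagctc
MCOLN1, chr19:7522561-7522623, plus strand: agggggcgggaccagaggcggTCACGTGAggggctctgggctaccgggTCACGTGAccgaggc
CTSA, chr20:45891271-45891334, plus strand: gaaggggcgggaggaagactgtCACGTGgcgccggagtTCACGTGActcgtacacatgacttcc
CTSD, chr11:1763947-1763996, minus strand: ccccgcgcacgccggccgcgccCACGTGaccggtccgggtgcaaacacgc
GAA, chr17:80101483-80101577, plus strand: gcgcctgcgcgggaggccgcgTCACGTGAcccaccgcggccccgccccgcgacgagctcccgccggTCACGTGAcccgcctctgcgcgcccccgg
NEU1, chr6:31862920-31862969, minus strand: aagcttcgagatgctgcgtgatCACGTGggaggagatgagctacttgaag
ATP6V0D1, chr16:67481189-67481238, minus strand: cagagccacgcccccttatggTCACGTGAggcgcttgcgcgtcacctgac
ATG3, chr3:112561963-112562002, minus strand: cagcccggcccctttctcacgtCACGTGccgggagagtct

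LAMP1 held 5 copies of the E-box in this stretch, the farthest 192 bases and the nearest 28 bases before the start. The stretches of MCOLN1, CTSA and GAA held 2 copies each. A further copy lay at the start of LAMP1 and another just past that of ATG3, both within the longer form and outside the stretches shown. The genes with an E-box did not move in one direction: LAMP1, CTSD, NEU1 and ATP6V0D1 rose, GAA and ATG3 fell, and CTSA (0.20) and MCOLN1 (-0.02) missed the threshold. Their median log2 fold change was 0.24, and that of the 26 genes with a window but no match was 0.16. Among those 26, 12 rose and 2 fell. Of the 12061 tested genes at or above the lowest mean of the list, 29.4% rose and 22.4% fell. Whether the direction depends on an E-box was not tested.

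**Figure D2:**
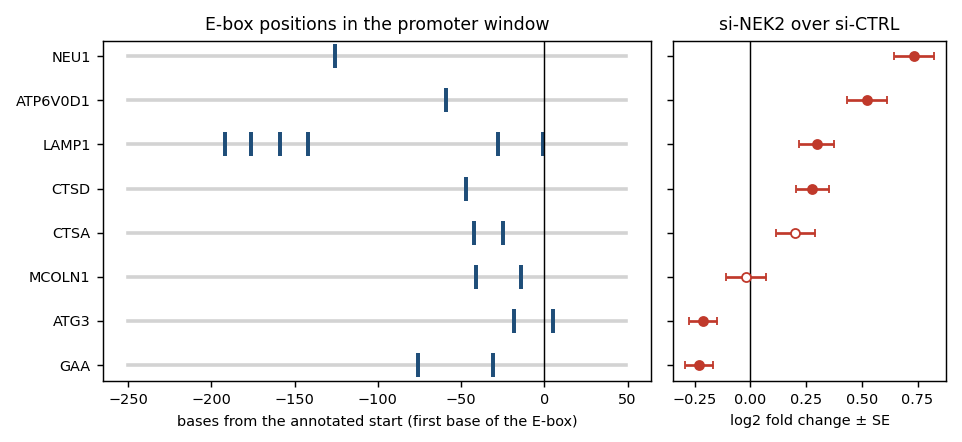
Left, first base of each CACGTG (ticks) in the RefSeq window of the 8 genes that hold one, in bases from the annotated start on the x axis. Right, the log2 fold change of the same gene with its SE, filled where the adjusted p was at most 0.05. LAMP1 has the most copies, and the 8 genes run from NEU1 (0.73) to GAA (-0.23).

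The membrane proteins of the lysosome showed no common direction. LAMP1, a heavily glycosylated protein that lines the inner face of the lysosomal membrane, had 13674, 11729 and 12437 normalized counts in si-CTRL and 16066, 14387 and 16063 in si-NEK2 cells. It rose by a log2 fold change of 0.30 (SE 0.08, limma adjusted p = 0.014), but the adjusted p was 0.0501 when si-CTRL replicate 2 was left out, and 0.061 and 0.0572 when si-NEK2 replicate 1 or 3 was. LAMP2, its relative that also serves chaperone-mediated autophagy, had 18214, 16770 and 17888 against 15662, 16325 and 16754. All si-NEK2 values of LAMP2 were lower, with a log2 difference of -0.12 (SE 0.06) and an adjusted p of 0.165. MCOLN1, the calcium channel of the lysosome, differed by -0.02 (95% interval from -0.22 to 0.18), and by 0.06 without si-CTRL replicate 1.

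Of the 11 genes for proteins of the lumen, 4 rose, 2 fell and 5 did not pass the test. The shares that rose and fell were 36.4% and 18.2%. Among the 12061 tested genes at or above the lowest mean of the list they were 29.4% and 22.4%. NEU1 (GSHG0026482, hg19 chr6:31826830-31846823), the lysosomal sialidase, changed most, with 3023, 2405 and 2791 normalized counts in si-CTRL and 4412, 4577 and 4631 in si-NEK2 cells. The groups were far apart, with a fold of 1.66 between their means (log2 fold change 0.73, SE 0.09, limma adjusted p = 0.000304). The table gives NEU1 and SLC44A4 in 1 row, so reads of the neighbouring gene are included. CTSA, the serine carboxypeptidase that forms a complex with NEU1 and protects it, had 21272, 17137 and 17755 against 21211, 20589 and 22568. The highest si-CTRL value of CTSA was that of replicate 1, and the log2 difference was 0.20 (SE 0.09, adjusted p = 0.0974) with that library and 0.30 (adjusted p = 0.00102) without it.

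The proteases of the lumen went both ways. CTSD, the main aspartic protease, rose from 12808, 13670 and 14629 to 17543, 16566 and 15734 normalized counts (log2 fold change 0.28, SE 0.07, limma adjusted p = 0.0137). CTSB, a cysteine protease, fell from 38505, 32537 and 34819 to 30311, 29978 and 30536 (-0.22, SE 0.07, adjusted p = 0.0382). CTSL, another cysteine protease, was also lower in all si-NEK2 libraries, at 16854 to 17517 against 17885 to 21872, and stood at the threshold (-0.23, SE 0.08, adjusted p = 0.0507). The adjusted p of CTSL was 0.0096 without si-CTRL replicate 2 and up to 0.162 without another library, and it was 0.0381 by edgeR and 0.0275 by DESeq2. CTSZ had 7433 normalized counts in si-CTRL replicate 1 and 4368 to 5063 in the other 5 libraries, so its log2 difference of -0.26 (adjusted p = 0.213) was -0.06 without that library. The calls of CTSD and CTSB were less firm than that of NEU1, with adjusted p of up to 0.0637 and 0.127 when a single library was left out. For CTSD these were si-NEK2 replicates 1 and 2, and for CTSB si-CTRL replicate 3 and each si-NEK2 replicate. CTSD also lost its call with equal totals (limma adjusted p = 0.128) and quantile scaling (0.146).

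Among the glycosidases and activators, GLA, the alpha-galactosidase, rose from 3637, 3361 and 3586 to 4000, 4420 and 4883 normalized counts (log2 fold change 0.33, SE 0.08, limma adjusted p = 0.0133). GAA, which degrades glycogen in the lysosome, fell from 5997, 5695 and 5856 to 5234, 4870 and 4871 (-0.23, SE 0.06, adjusted p = 0.0177). Neither gene had overlapping groups, but leaving out si-NEK2 replicate 2 or 3 raised the adjusted p to at most 0.0546 for GLA and 0.087 for GAA. HEXA, the alpha subunit of beta-hexosaminidase, which shares its row with CELF6 and PARP6, was higher by 0.17 (SE 0.06, adjusted p = 0.0464) and lost its call without si-CTRL replicate 2 or any si-NEK2 replicate (up to 0.15). PSAP, the precursor of the saposins, had 55941, 51224 and 55365 against 59335, 59548 and 63896, without overlap but with an adjusted p of 0.066 (0.17, SE 0.07). GRN, progranulin, overlapped between the groups and differed by 0.10 (adjusted p = 0.333). Both passed the threshold without si-CTRL replicate 1 (adjusted p of 0.0143 and 0.00758), and with quantile scaling both turned negative (-0.07 and -0.03).

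The proton pump was the lysosomal role with the highest median, at a log2 fold change of 0.52. Of its 5 listed genes 4 rose (80%), against 29.4% of the 12061 tested genes at or above the lowest mean of the list. The 17 further subunits tested had a median of 0.18, and by the 1.5-fold rule 0 were higher and 2 lower (11.8%). By that rule 8.23% of all tested genes were higher and 14.3% lower. ATP6V1B2 (GSHG0028857), a subunit of the catalytic head of the V-ATPase, had 4407, 4528 and 4625 normalized counts in si-CTRL and 6857, 7075 and 7062 in si-NEK2 cells. The libraries of each group were close to each other, and the fold between means was 1.55 (log2 fold change 0.63, SE 0.06, limma adjusted p = 8.3e-05). With other scalings it was 0.50 to 0.56, still called but under the 1.5-fold rule. ATP6V0D1, of the membrane sector, rose from 4788, 4027 and 3878 to 6098, 5704 and 6388 (0.52, SE 0.09, adjusted p = 0.00192), and passed the 1.5-fold rule without si-CTRL replicate 1 (0.62).

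ATP6V1A, the catalytic subunit, had 1139, 1811 and 1841 normalized counts against 2494, 2600 and 2279. The low value belonged to si-CTRL replicate 1, and the log2 fold change was 0.65 (SE 0.17, limma adjusted p = 0.0137) with that library and 0.43 (adjusted p = 0.000653) without it, when it no longer passed the 1.5-fold rule. Without si-NEK2 replicate 2 the adjusted p of ATP6V1A was 0.0562. ATP6V1H, a regulatory subunit, showed the same low value in si-CTRL replicate 1, with 1791, 2596 and 2539 against 3012, 2990 and 2895. Its log2 fold change was 0.38 (SE 0.13, adjusted p = 0.0453) with all libraries, 0.21 without that one, and the call was lost without any of the si-NEK2 replicates (adjusted p of up to 0.12). By edgeR the adjusted p of ATP6V1H was 0.0646. ATP6AP1, an accessory subunit, differed by 0.11 (95% interval from -0.08 to 0.31), by 0.20 without si-CTRL replicate 1 (adjusted p = 0.0132) and by -0.02 with equal totals.

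**Figure D3:**
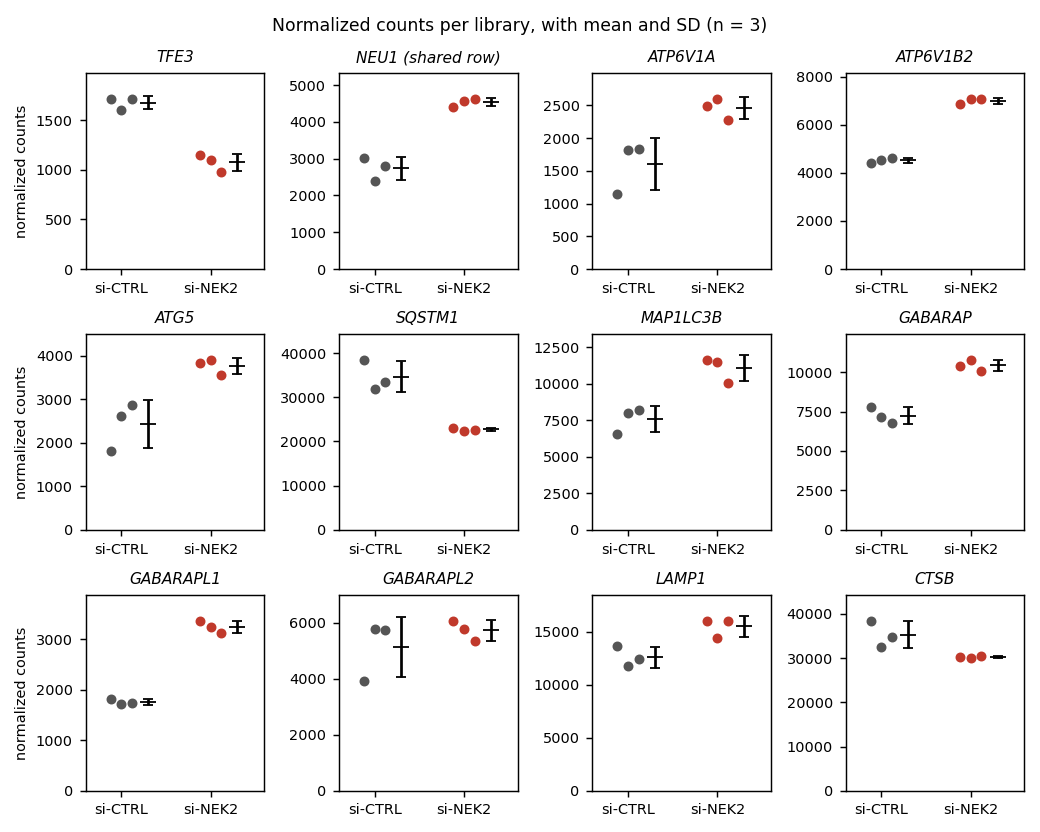
Normalized counts (y axis, from 0) in the 3 si-CTRL and 3 si-NEK2 libraries for 12 of the 42 genes, 1 panel per gene, with a point per library in the order of the replicates and the mean with SD beside them. In GABARAPL1, NEU1 and ATP6V1B2 the groups are well apart, while in ATP6V1A, ATG5 and GABARAPL2 the lowest point is si-CTRL replicate 1.

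In the 6 genes that start the autophagosome, 3 rose (50%) and 3 did not pass the test, and none reached a fold change of 1.5. Of the 12061 tested genes at or above the lowest mean of the list, 29.4% rose. WIPI2, which binds phosphatidylinositol 3-phosphate and recruits the conjugation machinery, rose from 5511, 4705 and 4732 to 6427, 6247 and 6434 normalized counts (log2 fold change 0.36, SE 0.08, limma adjusted p = 0.00542). ATG13, the partner of the ULK1 kinase, rose from 3592, 2889 and 2860 to 3860, 3742 and 4109 (0.33, SE 0.10, adjusted p = 0.0226), and with a library left out this call held only where that was si-CTRL replicate 1, with an adjusted p of up to 0.0798 for the others. BECN1, of the lipid kinase complex, was higher in every si-NEK2 library, at 5539 to 5881 against 4807 to 4952 (0.24, SE 0.06, adjusted p = 0.0118), and missed the threshold without si-NEK2 replicate 2 (0.067) or 3 (0.0518). The kinase gene ULK1 itself had 2181, 1803 and 1874 against 2426, 2099 and 1747 normalized counts. These overlap, and the log2 difference of 0.09 (95% interval from -0.20 to 0.38) was -0.02 without si-NEK2 replicate 1 and -0.04 with equal totals. UVRAG, a partner of BECN1, and WIPI1, a relative of WIPI2, differed by 0.19 (adjusted p = 0.252) and 0.14 (adjusted p = 0.197), and WIPI1 passed without si-CTRL replicate 1 (0.21, adjusted p = 0.00969).

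The conjugation system was divided between members that rose and members at control level or below. Of its 6 genes 3 rose (50%) and 1 fell (16.7%). The shares were 29.4% and 22.4% among the 12061 tested genes at or above the lowest mean of the list. ATG12, the ubiquitin-like protein, and ATG5, to which it is joined, both rose. ATG12 had 5970, 7082 and 6854 normalized counts in si-CTRL and 9452, 9494 and 9297 in si-NEK2 cells (log2 fold change 0.51, SE 0.08, limma adjusted p = 0.000858). ATG5 (GSHG0026809, hg19 chr6:106632366-106773695) had 1812, 2614 and 2865 against 3831, 3910 and 3566, with a log2 fold change of 0.66 (SE 0.15, adjusted p = 0.00771). The lowest ATG5 value was that of si-CTRL replicate 1, and without it the log2 fold change was 0.46 (adjusted p = 0.000289), below the 1.5-fold rule. ATG4B, the protease that trims ATG8 proteins and removes them from lipid, rose from 3376, 3243 and 3180 to 4775, 4594 and 4675 (0.52, SE 0.06, adjusted p = 0.000277).

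Of the other 3 genes of the system, 1 fell and 2 did not pass the test. ATG3, the E2-like enzyme that transfers ATG8 proteins to lipid, fell from 4418, 4137 and 4493 to 3737, 3724 and 3792 normalized counts (log2 fold change -0.21, SE 0.06, limma adjusted p = 0.0249). No si-NEK2 value of ATG3 reached the si-CTRL range, though the adjusted p was up to 0.0975 without si-CTRL replicate 3 or any si-NEK2 replicate. ATG7, the E1-like enzyme, overlapped between the groups and differed by 0.03 (95% interval from -0.13 to 0.19). ATG16L1, which anchors the ATG12 to ATG5 conjugate on the membrane, differed by 0.06 (95% interval from -0.10 to 0.23). The sign of ATG7 and ATG16L1 was negative under each of the other 3 scalings (-0.10 to -0.04 and -0.06 to -0.0013).

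The ATG8 family had the highest median log2 fold change of the 8 roles, 0.54. Of its 4 genes 3 rose (75%), against 29.4% of the 12061 tested genes at or above the lowest mean of the list. These small proteins are attached to the lipid of the autophagosome and hold cargo receptors and fusion factors there. GABARAPL1 (GSHG0006471, hg19 chr12:10365429-10375729) had 1829, 1713 and 1741 normalized counts in si-CTRL and 3375, 3238 and 3127 in si-NEK2 cells. The gap between the groups was many times the spread within them, and the fold between means was 1.84 (log2 fold change 0.88, SE 0.07, limma adjusted p = 3.41e-05). It was 0.75 to 0.84 with other scalings and 0.85 to 0.91 with any library left out. GABARAPL1 and NEU1 were the only members to pass the 1.5-fold rule under all 17 alternatives.

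MAP1LC3B, the LC3 protein most often used to count autophagosomes, had 6587, 7989 and 8219 normalized counts in si-CTRL and 11640, 11488 and 10069 in si-NEK2 cells (log2 fold change 0.55, SE 0.10, limma adjusted p = 0.0023). GABARAP had 7813, 7178 and 6755 against 10404, 10790 and 10066 (0.53, SE 0.07, adjusted p = 0.000545). Neither gene had overlapping groups. GABARAPL2 had 3908, 5799 and 5752 against 6089, 5788 and 5339, so the low si-CTRL value was again that of replicate 1. Its log2 difference was 0.18 (95% interval from -0.15 to 0.50, adjusted p = 0.358), and -0.01 without that library. Reads of near-identical copies can be split between rows, and how such reads were counted here was not tested. MAP1LC3B2 (mean 28.5 normalized counts) and GABARAPL3 (mean 5.99, below the filter) had few reads beside MAP1LC3B and GABARAPL1.

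The 4 cargo receptors were split, with 2 that rose (50%) and 1 that fell (25%). The shares were 29.4% and 22.4% among the 12061 tested genes at or above the lowest mean of the list. SQSTM1 (GSHG0024539, hg19 chr5:179233388-179265075), the receptor p62, which binds ubiquitin and LC3 and is itself degraded by autophagy, had 38519, 31872 and 33553 normalized counts in si-CTRL and 23085, 22481 and 22612 in si-NEK2 cells. All si-NEK2 values lay well below, 65.6% of the control mean remained, and SQSTM1 fell by 0.60 on the log2 scale (SE 0.08, limma adjusted p = 0.000406). Without si-CTRL replicate 1, its highest library, the log2 fold change was -0.53 (adjusted p = 1.56e-05), under the 1.5-fold rule. TAX1BP1 rose from 15519, 13718 and 14136 to 18050, 19327 and 18605 (0.37, SE 0.07, adjusted p = 0.00255). NBR1, a relative of SQSTM1 in function, rose from 7128, 7350 and 7598 to 8637, 8952 and 8953 (0.27, SE 0.06, adjusted p = 0.0067), although not with equal totals (0.14, adjusted p = 0.0934) or quantile scaling (0.15, adjusted p = 0.0713). OPTN, which acts in the removal of mitochondria, was lower in all si-NEK2 libraries, at 4297 to 4638 against 4767 to 5203, and missed the threshold (-0.16, SE 0.07, adjusted p = 0.0853).

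**Figure D4:**
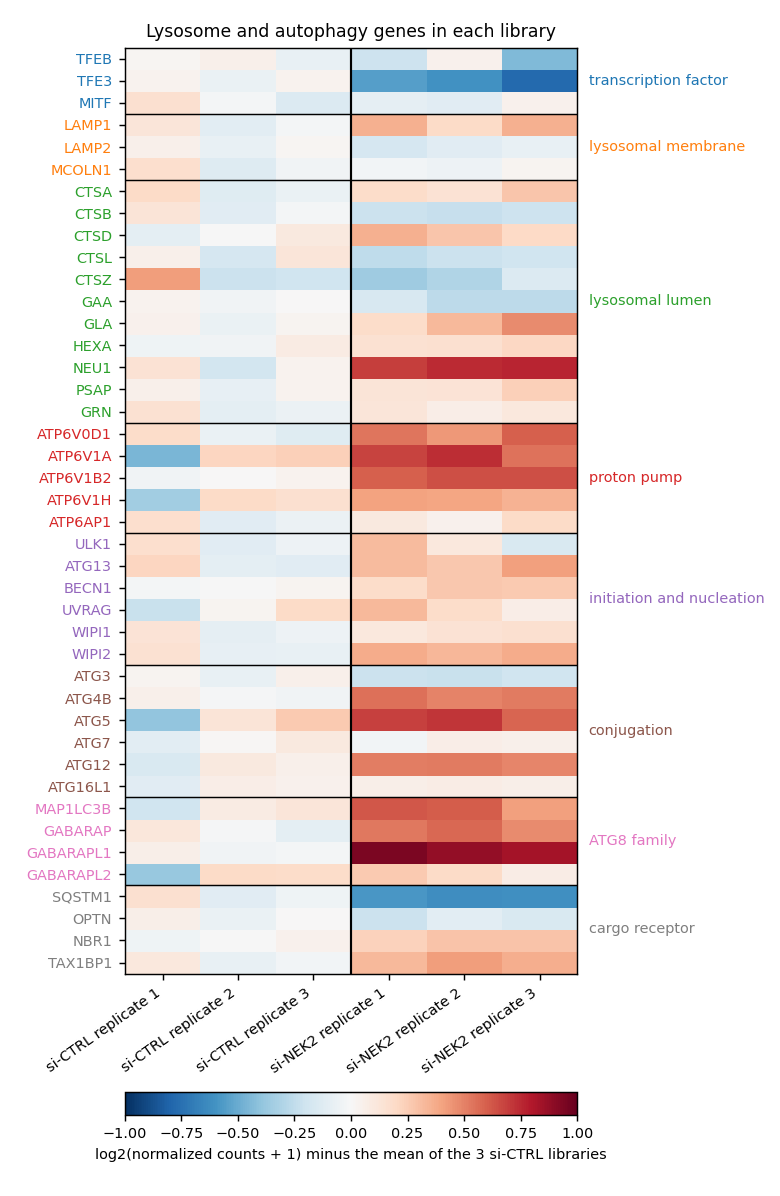
Values of the 42 genes (rows, by role) in the 6 libraries (columns), as log2(normalized counts + 1) minus the mean of the 3 si-CTRL libraries, in colour from blue (lower) to red (higher). GABARAPL1 and NEU1 are reddest in the 3 si-NEK2 columns, TFE3 and SQSTM1 are blue there, and si-CTRL replicate 1 differs from its group in ATP6V1A, ATG5, GABARAPL2 and CTSZ.

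The si-CTRL replicate 1 library was the lowest of its group for 14 of the 42 genes and the highest for 25. In log2 terms it lay between -0.68 and 0.62 from the mean of the other si-CTRL libraries, while si-NEK2 replicates 1, 2 and 3 lay between -0.37 and 0.36 from theirs. Without it, 25 genes rose and 5 fell, where 26.7% and 23.2% of all tested genes did. By the 1.5-fold rule 4 were then higher and 1 lower, against 7.4% and 13.8% of all tested genes. Its part in the results was not tested beyond these values.

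The rest of the pathway was read from 174 further genes in 6 lists, of which 172 were found and 165 tested. Of the 165, 65 rose and 23 fell by adjusted p (39.4% and 13.9%), with a median log2 fold change of 0.15. By the 1.5-fold rule 16 were higher and 9 lower (9.70% and 5.45%), against 8.23% and 14.3% of all tested genes. The split by adjusted p also moved with scaling. It was 53 and 26 with upper quartile scaling (32.1% and 15.8%), against 17.5% and 24.6% of all tested genes. With quantile scaling it was 52 and 21 (31.5% and 12.7%), against 21.1% and 19.1%. With equal totals 38 rose and 34 fell (23.0% and 20.6%), against 13.8% and 28.1% of all tested genes. In 24 of the 165 the row is shared with another gene.

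Of 39 further hydrolases and activators 13 rose and 5 fell (33.3% and 12.8%), against 21.8% and 21.3% of all tested genes. GM2A, the activator of ganglioside breakdown, had 2258, 2359 and 2630 normalized counts in si-CTRL and 4311, 4023 and 4162 in si-NEK2 cells (log2 fold change 0.79, SE 0.08, limma adjusted p = 0.0001). PLA2G15, the lysosomal phospholipase A2, and CTSV, a cysteine protease, were higher by 0.77 (SE 0.07) and 0.75 (SE 0.08). CTSS, a cysteine protease best known from antigen-presenting cells, had low counts and fell from 114, 134 and 153 to 23.7, 39.8 and 42.7 (-1.92, SE 0.25, adjusted p = 0.000417). It was the lowest log2 fold change of the hydrolases tested.

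Of 25 genes for membrane proteins and sorting 13 rose and 5 fell (52% and 20%), against 21.8% and 21.3% of all tested genes. LAPTM4B, a lysosomal membrane protein, fell from 4194, 4680 and 4863 to 1548, 1610 and 1718 normalized counts (log2 fold change -1.49, SE 0.08, limma adjusted p = 6.51e-06). M6PR, the cation-dependent mannose 6-phosphate receptor, fell, with a log2 fold change of -0.65 (SE 0.12) and, without si-CTRL replicate 1, of -0.51, under the 1.5-fold rule. GNPTAB, which makes the mannose 6-phosphate tag, and the sorting receptor SORT1 rose (0.74 and 0.59), SORT1 under the 1.5-fold rule with the other scalings (0.46 to 0.52). Among 17 further proton pump subunits 7 rose and 1 fell (41.2% and 5.88%), against the same shares of all tested genes. The gene that fell was ATP6V1E2, an isoform of a stalk subunit, from 401, 443 and 487 to 173, 145 and 147 (-1.51, SE 0.13, adjusted p = 4.68e-05).

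Of 30 genes of nutrient sensing at the lysosome 13 rose and 3 fell (43.3% and 10%), against 21.8% and 21.3% of all tested genes. LAMTOR5, of the Ragulator complex that anchors mTORC1 to lysosomes, NPRL2, of the GATOR1 complex that restrains mTORC1, and DEPTOR, an inhibitor of mTOR, were higher by 0.64 (SE 0.14), 0.68 (SE 0.10) and 0.88 (SE 0.19) on the log2 scale. LAMTOR5 was under the 1.5-fold rule without si-CTRL replicate 1 (0.46) and with the other scalings (0.52 to 0.58), and NPRL2 with equal totals (0.55). DEPTOR had low counts, at 97.9 to 161 normalized counts in si-CTRL and 205 to 235 in si-NEK2 cells. Its log2 fold change was 1.1 without si-CTRL replicate 1, where its count was highest of the group. Among 36 further core autophagy genes 13 rose and 6 fell (36.1% and 16.7%), against the same shares of all tested genes. MAP1LC3A, another ATG8 gene, also had low counts, with 35, 70.7 and 49.4 against 146, 107 and 80.0, and its log2 fold change of 1.10 (SE 0.30, limma adjusted p = 0.0159) had an adjusted p of up to 0.0681 without si-NEK2 replicate 1 or 2. Without si-CTRL replicate 1 the log2 fold change of MAP1LC3A was 0.86. TMEM41B, a lipid scramblase needed for autophagosome formation, rose from 1395, 1718 and 1803 to 2828, 3135 and 2819 (0.84, SE 0.10, adjusted p = 0.000341). ATG9A, the membrane-spanning scramblase of the pathway, whose row also holds ABCB6, rose by 0.73 (SE 0.10). ULK2, the relative of ULK1, and TECPR1, which acts in fusion with lysosomes, fell by 0.88 (SE 0.11) and 0.79 (SE 0.14) on the log2 scale.

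Of 18 further receptors for selective autophagy 6 rose and 3 fell (33.3% and 16.7%), against 21.8% and 21.3% of all tested genes. BNIP3L, a receptor on mitochondria that is induced by hypoxia, fell from 1929, 1990 and 2003 to 663, 708 and 692 normalized counts (log2 fold change -1.52, SE 0.07, limma adjusted p = 4.42e-06). RETREG1, a receptor of the endoplasmic reticulum, fell from 267, 323 and 292 to 182, 175 and 226 (-0.60, SE 0.14, adjusted p = 0.00783). With quantile scaling RETREG1 was at -0.44, and with a library left out at -0.71 to -0.53, in part under the 1.5-fold rule.

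**Figure D5:**
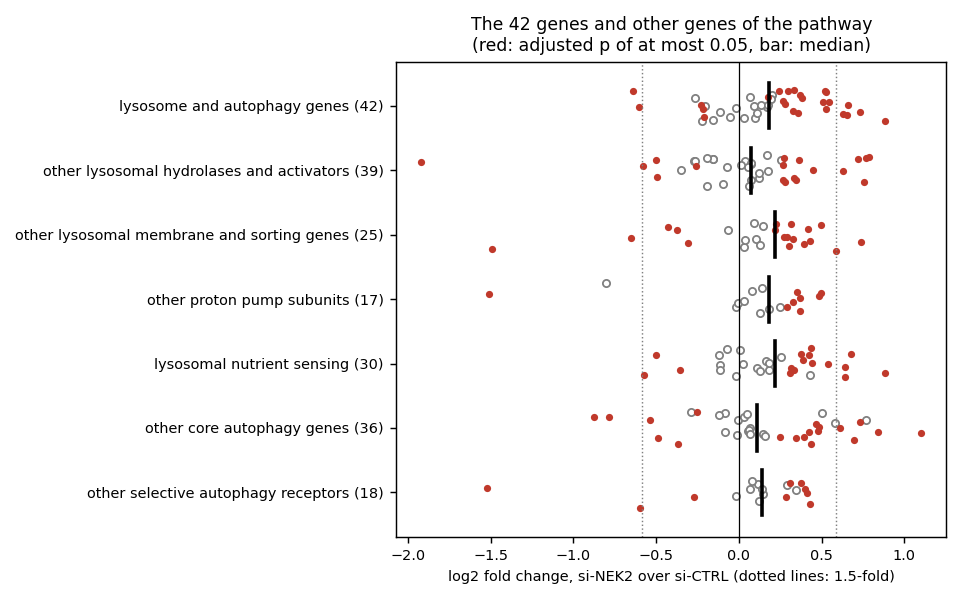
Log2 fold change (x axis) of the 42 genes and of the 165 further pathway genes in 6 lists (y axis, number of genes in brackets), 1 point per gene. Red points have an adjusted p of at most 0.05, thick bars are medians and dotted lines mark a fold change of 1.5. Every list has points on both sides of 0 and a median between 0.07 and 0.22, and CTSS, BNIP3L, ATP6V1E2 and LAPTM4B lie below -1.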

How the data were processed

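PolyA RNA of MDA-MB-231 cells was sequenced from stranded libraries, 3 si-CTRL and 3 si-NEK2, grouped by the sample labels. The authors deposited 1 signal per gene and library, read counts divided by a DESeq2 size factor, from reads aligned to hg19 (STAR 2.4.0 in the submitters' processing notes), with FAST DB genes. Whether counting used the strand is not given in the sources used here. In every library 100% of values were whole multiples of the smallest step (tolerance 0.01), so reads were recovered for the count tests. The members and gene lists were chosen with earlier results of these data known.

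Genes with a mean of at least 10 were fitted as log2(value + 1) with limma 3.58.1 in R 4.3.3 (trended variances, Benjamini-Hochberg over all 18717 genes, no covariate). The change of a gene with low counts is understated on this scale. A rise or fall is an adjusted p of at most 0.05, and the 1.5-fold rule is p of at most 0.05 with that fold. The text names all 42 members and, in each further list, the up to 3 largest increases and decreases that passed both rules without overlap. Alternatives were other pseudocounts, filters and scalings, no variance trend, a replicate block, each library left out, edgeR 4.0.16 and DESeq2 1.42.0 on the recovered reads. Scripts were tested on simulated data. Promoter sequences are from RefSeq, GRCh38.p14.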

Additional observations from a re-analysis of the deposited data

How the results depend on the processing

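NEK2 stayed near the reported value under all 17 alternatives. Of the 42 genes, 33 kept their direction under all of them, and 13 of the 25 with an adjusted p of at most 0.05 kept their call. The same counts over all tested genes were not made. The number of the 42 genes that passed the 1.5-fold rule was 7, fell to 4 with equal totals (the cause was not tested) and was 5 to 8 with a library left out. With equal totals 5.03% of all tested genes were higher and 18.6% lower by that rule, against 8.23% and 14.3%. At a fold change of 2 the number for the list was 0, although 25 of its genes had an adjusted p of at most 0.05 by limma, 24 by edgeR and 25 by DESeq2. By these tools 43.1%, 42.8% and 43.9% of all tested genes had one. For the 42 genes the number with such an adjusted p was 15 to 30 with a library left out, and the lowest, 15 and 16, came without si-NEK2 replicates 2 and 3. Among all tested genes the share with such an adjusted p was 31.5% to 49.9% with a library left out, against 43.1% with all libraries. The cause was not tested. Of the 165 further genes, 25 passed the 1.5-fold rule and 5 a fold change of 2. The share of all tested genes at a fold change of 2 was not computed.

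The genes whose sign turned all had log2 differences that missed the threshold with every library, and the cause was not tested. With quantile scaling MITF was 0.11, PSAP -0.073, GRN -0.028, ATG7 -0.072 and ATG16L1 -0.0051. With equal totals GRN was -0.031, ATP6AP1 -0.016, ULK1 -0.038, ATG7 -0.098 and ATG16L1 -0.064, and with upper quartile scaling ATG7 was -0.036 and ATG16L1 -0.0013. With a library left out, MITF ranged from -0.12 to 0.027, MCOLN1 from -0.084 to 0.064, ULK1 from -0.023 to 0.21, ATG7 from -0.024 to 0.077 and GABARAPL2 from -0.011 to 0.27.

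Whether libraries of equal replicate number were prepared together is not given in the labels. The deviations of same-numbered libraries correlated at -0.091, 0.0469 and -0.147. No shared shift was visible in these values, which cannot tell how the libraries were prepared. With a replicate block 18 genes rose and 3 fell (21 in all), against 18.3% and 18.5% of all tested genes. With that block 7 genes passed the 1.5-fold rule, and the calls of CTSB, HEXA, ATP6V1H and ATG3 were lost. For low genes such as TFEB, the interval of the difference, from -0.53 to 0.13, shows what 3 libraries per group could resolve.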
